A study of Mus musculus with 15 samples.

Results

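The comparison described here is that of acetate with its vehicle in cultured primary mouse hippocampal neurons kept under an inhibitor of ACSS2. It rests on 7 of the 15 RNA-seq libraries of the series, chosen by their labels alone, and on all 24498 gene rows of the count table. Inhibitor vehicle (n = 3) received the inhibitor at 20 µM and plain medium, and inhibitor acetate (n = 4) received the same inhibitor and 5 mM acetate, each for 24 h after 7 days of differentiation. The remaining 8 libraries, 4 with vehicle and 4 with acetate, received the inhibitor's solvent DMSO instead. They enter the filter on low counts, the scaling, the average level used to name genes and the shared estimate of the spread. They also enter the test of whether the acetate response differs between the arms.

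ACSS2 joins acetate to coenzyme A in the cytosol and nucleus, and the acetyl-CoA it makes feeds lipid synthesis and the acetylation of histones. In neurons a pool of ACSS2 sits on chromatin, where it supplies acetyl groups near genes that are switched on by activity. The comparison asks how these cultures respond to added acetate while that enzyme is inhibited. The labels give neither the compound's name nor a measure of how far it blocked the enzyme. The cultures came from a neuron core facility and held markers of several cell types, and no source used here says whether replicates were separate animals or platings, so p-values measure only the spread between these libraries. In a bulk library, fewer cells of a type and less RNA per cell cannot be told apart.

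Gene counts in the 7 libraries ranged from 21323812 to 25006845, with a median of 22668496, so that 1 count was worth 0.0378 to 0.0464 CPM, a gene's count scaled to a common library size. That scale used the TMM method, and differences are given as log2 folds, acetate minus vehicle, from edgeR's quasi-likelihood fit. The label was checked against cell type markers. All 14 pan-neuronal markers were expressed, with a summed level of 5905 to 8121 with vehicle and 9398 to 10421 with acetate, in CPM. None of the 10 marker lists was silent except that of red blood cells, of whose 6 genes 4 had no count in any library.

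The vehicle libraries were not alike. Inhibitor vehicle 2 stood apart from inhibitor vehicle 1 and 3 in most markers of microglia, oligodendrocytes, vessels and meninges, and lay close to the acetate libraries there. In choroid plexus markers it lay on the vehicle side of the acetate range in 7 of the 9 genes, in astrocyte markers in 9 of the 15 and in progenitor markers in 5 of the 8. The mean log2 CPM of 17 microglia and macrophage markers was 4.02, -0.51 and 4.33 in inhibitor vehicle 1, 2 and 3 and -0.021, 1.24, -0.23 and 0.56 in inhibitor acetate 1 to 4. Markers of meninges and fibroblasts gave 3.84, 1.47 and 4.21 with vehicle and 1.48, 1.87, 2.01 and 1.39 with acetate. Astrocyte markers were closer together, at 7.08, 6.85 and 7.36 with vehicle and 6.54, 6.20, 6.67 and 6.30 with acetate, and here all 3 vehicle libraries lay above all 4 acetate libraries. A non-neuronal score, the mean log2 CPM over the astrocyte, oligodendrocyte, microglia, vessel and meningeal lists, was 4.12, 1.94 and 4.42 with vehicle and 1.90 to 2.18 with acetate. On the first principal component of the 7 libraries, which held 75.8% of the variance, inhibitor vehicle 2 lay at 26.05. The acetate libraries lay beside it at 26.2 to 38.2, while inhibitor vehicle 1 and 3 lay at -79.0 and -82.0. On the second component, with 9.70% of the variance, inhibitor vehicle 2 stood apart from both, at -41.5. There the acetate libraries lay at 1.39 to 19.6 and inhibitor vehicle 1 and 3 at -0.097 and 1.71. Pan-neuronal markers ran the other way, at 8.14, 8.53 and 8.09 log2 CPM with vehicle and 8.75, 8.79, 8.71 and 8.85 with acetate.

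Sums over the markers showed the same split for microglia, with 45.2 to 797 with vehicle and 50.3 to 106 with acetate, in CPM. In astrocytes the summed level was 21667, 8404 and 24034 CPM in inhibitor vehicle 1, 2 and 3 and 8009, 6993, 8692 and 6527 CPM in inhibitor acetate 1 to 4, so that vehicle 2 lay inside the acetate range. For vessel cells the sum was 70.9 to 339 with vehicle and 49.0 to 67.3 with acetate, and for choroid plexus and ependyma it was 491 to 1049 with vehicle and 193 to 260.2 with acetate, where vehicle 2 at 491 CPM stayed above every acetate library. Oligodendrocyte markers summed to 271 to 1096 with vehicle and 439 to 1102 with acetate, a sum in which 1 gene weighed heavily. Olig1, a transcription factor of the oligodendrocyte lineage chosen here after its values were seen, was at 54.9, 932 and 82.8 CPM with vehicle and 795, 438, 939 and 306 CPM with acetate. Its level was low in inhibitor vehicle 1 and 3 and high in vehicle 2 and in all acetate libraries, the reverse of Sox10, another factor of that lineage, at 8.26, 1.14 and 12.7 CPM and 0.609, 0.643, 1.07 and 1.21 CPM.

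Of the transcripts that tell female from male cells, Xist did not set vehicle 2 apart. Xist, an RNA by which female cells silence an X chromosome (chromosome X, 103460373 to 103483233), was at 63.5, 67.2 and 60.9 CPM in inhibitor vehicle 1 to 3 and 157, 135, 159.8 and 142 CPM in inhibitor acetate 1 to 4. Vehicle 2 sat with the other vehicle libraries, the groups did not overlap, and the log2 fold was 1.22 (SE 0.089, edgeR adjusted p = 1.11e-05). Eif2s3y, a translation factor gene of the Y chromosome, was at 14.0, 19.6 and 20.7 CPM and 11.4, 10.8, 11.6 and 11.9 CPM and fell by 0.67 on the log2 scale, while Ddx3y, a Y-linked RNA helicase, was at 20.4, 36.2 and 24.1 CPM and 15.9, 13.6, 15.6 and 19.0 CPM and fell by 0.75, or by 0.47 without vehicle 2. Uty, another Y-linked gene, was at 1.61, 3.83 and 2.46 CPM and 2.92, 1.24, 2.41 and 1.66 CPM, and its log2 fold of -0.35 did not pass, nor did that of Kdm5d (-0.15). In Ddx3y and Uty vehicle 2 was the highest of the 7 libraries. Transcripts of the sex chromosomes thus moved with the acetate groups as well, and the part of the cultures' sex makeup in the results was not tested. Because the marker levels move with both the group and vehicle 2, most counts below are also given with vehicle libraries left out, and many lists by their median difference from each vehicle library.

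**Figure D1:**
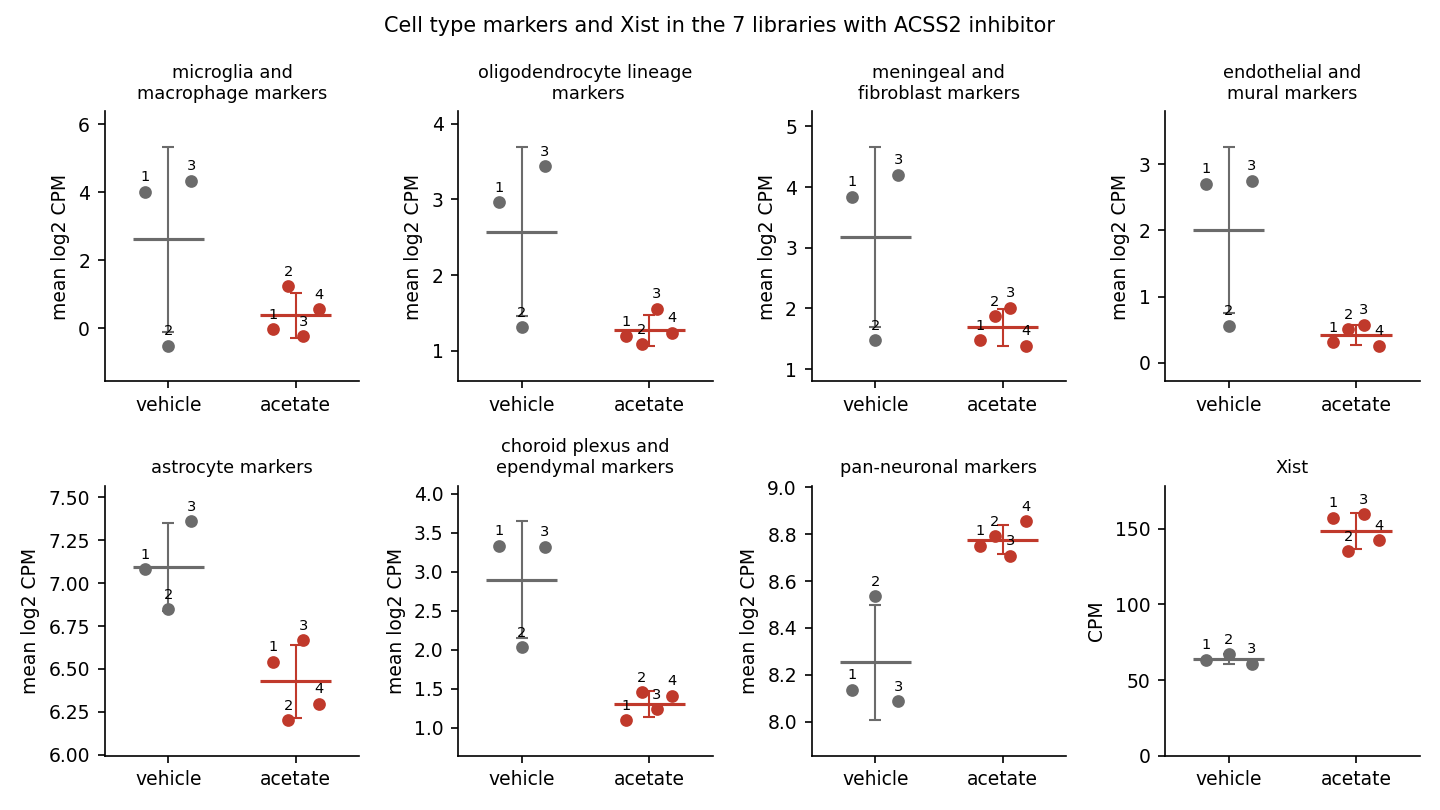
Mean log2 CPM of the members tested of 7 marker lists, and CPM of Xist, in the 7 inhibitor libraries (vertical axes), with vehicle in grey and acetate in red. Each point is a library with its replicate number, and bars show the group mean with its SD (n = 3 and n = 4); inhibitor vehicle 2 lies with the acetate libraries for microglia markers at -0.51 and with the vehicle libraries for Xist at 67.2 CPM.

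Of 15075 genes tested, 2180 rose with acetate under the inhibitor (14.5% of genes tested) and 3103 fell (20.6%), at a Benjamini-Hochberg adjusted p under 0.05. The remaining 9792 did not pass, and the median log2 fold over all genes was -0.03. Falls were larger than rises: 1363 genes fell by at least 2-fold and 647 by at least 4-fold, against 170 and 6 that rose so far. Genes that rose had a median of 0.48 and genes that fell a median of -0.85.

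The counts rested unevenly on the vehicle libraries. Leaving out inhibitor vehicle 1, 2 and 3 in turn gave 1245, 2894 and 1348 rises and 1877, 3616 and 1934 falls, and with vehicle 2 as the only vehicle library 208 rose and 286 fell. Adding the non-neuronal score to the model, 771 rose and 1000 fell. Of the vehicle libraries only vehicle 2 had a score (1.94) within that of the acetate libraries (1.90 to 2.18). This fit thus leans on vehicle 2 and is no check separate from vehicle 2 alone. With 1 reference library few genes of any kind can pass. A lost call or a list count of 0 against vehicle 2 alone is therefore no result by itself, and list counts there are to be read beside those few calls over all genes. When libraries were scaled on the summed counts of the neuronal markers instead of TMM, 137 rose and 10450 fell, and the median of all genes moved to -0.63; folds under that scaling are to be read against that median.

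With vehicle 2 as the only vehicle library, 183 of the 2180 rises and 242 of the 3103 falls were still called. The genes called higher had a median difference of 0.57, 0.34 and 0.53 log2 CPM against inhibitor vehicle 1, 2 and 3, and for 1977 of the 2180 (90.7%) vehicle 2 lay below all 4 acetate libraries. The genes called lower had medians of -0.98, -0.31 and -1.02, and for 2059 of the 3103 (66.4%) vehicle 2 lay above all 4 acetate libraries. Vehicle 2 had a part in these calls, so both shares are descriptions. The scatter of both differences shows microglia markers and collagens far to the left with no matching fall against vehicle 2. Members of the integrated stress response and the sterol pathway lie nearer the line of equality.

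**Figure D2:**
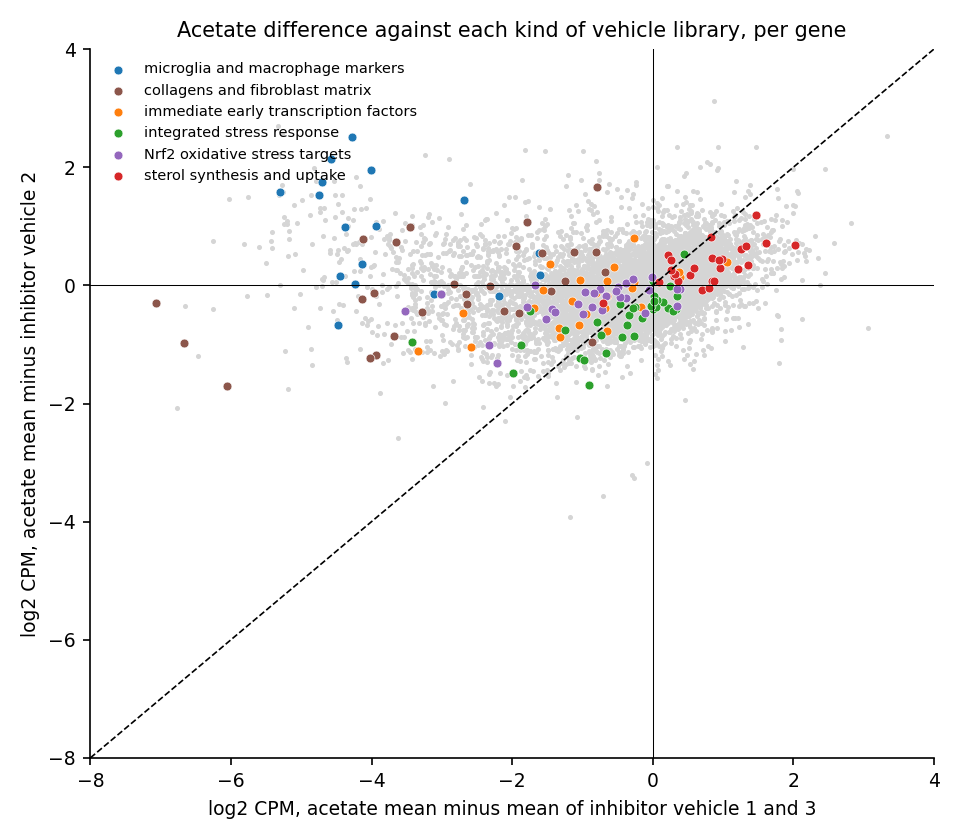
Each grey point is 1 of the 15075 genes tested, with the acetate mean minus the mean of inhibitor vehicle 1 and 3 on the horizontal axis and the acetate mean minus inhibitor vehicle 2 on the vertical axis, both in log2 CPM; the dashed line marks equal differences and colours mark 6 gene lists. Microglia markers have list medians of -3.94 and -4.37 against vehicle 1 and 3 and of 0.98 against vehicle 2.

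The largest rise among the genes named by the rule was in Nts, which encodes neurotensin, a neuropeptide (chromosome 10, 102481756 to 102490418, mouse build GRCm38). It stood at 1.17, 1.504 and 0.567 CPM in inhibitor vehicle 1 to 3 and at 9.58, 9.04, 8.44 and 9.09 CPM in inhibitor acetate 1 to 4, all acetate libraries above all vehicle libraries. The log2 fold was 3.07 (SE 0.32, edgeR adjusted p = 4.58e-05), and 2.59 (adjusted p = 0.00539) against vehicle 2 alone. Nrsn2, a vesicle membrane protein of neurons (chromosome 2, 152368755 to 152376625), rose from 2.78, 3.19 and 1.85 CPM to 13.2, 13.0, 10.4 and 14.8 CPM, a log2 fold of 2.31 (SE 0.19, edgeR adjusted p = 1.59e-05). Sla, an adaptor that damps receptor signaling (chromosome 15, 66780819 to 66831829), was at 2.56, 3.28 and 4.08 CPM and 13.1, 12.6, 15.1 and 12.1 CPM, with 1.99 (SE 0.18, edgeR adjusted p = 2.88e-05). In these 3 genes vehicle 2 was close to the other vehicle libraries, and against vehicle 2 alone Nrsn2 and Sla still had 2.02 and 2.01, both past the threshold.

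Other named rises differed in how much of the fold was kept against vehicle 2 alone. Epha10, an ephrin receptor, was at 13.3, 18.5 and 11.9 CPM with vehicle and 46.8, 51.2, 46.0 and 44.6 CPM with acetate (log2 fold 1.70, SE 0.20). Fam131c rose by 1.69 (SE 0.13) and Kcp, a secreted modulator of BMP signaling, by 1.57 (SE 0.19). Epha10, Fam131c and Kcp kept 1.35, 1.498 and 1.13 against vehicle 2 alone. Mdga1, a cell surface protein that restrains synapse formation (chromosome 17, 29827956 to 29888583), was at 100.3, 298 and 76.7 CPM with vehicle and 628, 611, 631 and 611 CPM with acetate. Its vehicle 2 level lay between the groups, and the fold of 1.97 (SE 0.52, edgeR adjusted p = 0.0106) lost its call without inhibitor vehicle 1 (1.74, adjusted p = 0.0555) and without vehicle 3 (1.65, adjusted p = 0.0513). The same holds for Slc6a7, the proline transporter of excitatory terminals, at 37.8, 97.3 and 32.0 CPM and 173, 174, 175 and 173 CPM, and for Sema4a, a semaphorin, at 10.3, 36.3 and 9.53 CPM and 58.1, 63.4, 58.6 and 58.4 CPM. Without vehicle 1 they had 1.43 and 1.39 with edgeR adjusted p = 0.0604 and 0.0850, and without vehicle 3 1.37 and 1.36 with adjusted p = 0.0581 and 0.0801. Kcng1, a modulatory potassium channel subunit, rose by 1.59 (SE 0.30) and had 1.09 against vehicle 2 alone.

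The falls named by the rule included several genes of matrix and contractile cells. Lox, which crosslinks collagen, was at 23.8, 0.456 and 32.2 CPM in inhibitor vehicle 1 to 3 and 0.261, 0.275, 0.185 and 0.0900 CPM in inhibitor acetate 1 to 4, with a log2 fold of -6.50 (SE 1.11, edgeR adjusted p = 0.00102). Acta2, the actin of smooth muscle and myofibroblasts (chromosome 19, 34240336 to 34255585), was at 116, 4.56 and 125 CPM and 0.740, 1.42, 0.788 and 1.30 CPM, with -6.27 (SE 0.83, edgeR adjusted p = 0.000252). Vehicle 2 lay above the acetate libraries in both genes and far below vehicle 1 and 3. Tinagl1, a matricellular protein (-6.29, SE 1.18), Fmod, a collagen-binding proteoglycan (-4.28, SE 0.58), Thbs1, a thrombospondin (-3.64, SE 0.61), and Timp1, a metalloprotease inhibitor (-3.59, SE 0.67), also had a vehicle 2 level far below vehicle 1 and 3. With only vehicle 2 as reference, Lox, Acta2, Tinagl1, Fmod, Thbs1 and Timp1 had -1.14, -2.09, -1.40, -1.27, -0.22 and -1.24. Ctgf, a matricellular growth factor, was at 118, 16.2 and 103 CPM and 6.27, 7.30, 9.46 and 6.03 CPM (-3.45, SE 0.45), with -1.15 against vehicle 2 alone. Pvalb, the calcium-binding protein of a class of interneurons that is also made outside neurons, was at 16.0, 1.91 and 19.1 CPM and 0.914, 0.735, 0.974 and 0.540 CPM, with the same low vehicle 2.

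Many genes of the synapse rose. Of 33 genes of vesicle release, 18 rose and 1 fell, with a median log2 fold of 0.39, beside 14.5% and 20.6% and a median of -0.03 over all genes. Syt7, a calcium sensor of slow vesicle release, was at 174, 185 and 164 CPM with vehicle and 285, 321, 288 and 325 CPM with acetate, without overlap, and rose by 0.81 (SE 0.088, edgeR adjusted p = 6.76e-05). Erc2, a scaffold of the presynaptic active zone, rose by 1.09 (SE 0.22), Stx1a, a membrane-fusion protein, by 0.68 (SE 0.15) and Slc17a7, which loads glutamate into vesicles, by 0.99. The gene that fell, Unc13b, primes vesicles and had -0.34, a call lost without vehicle 3 (adjusted p = 0.0515). Leaving out inhibitor vehicle 1, 2 and 3 in turn gave 9, 19 and 12 rises, and vehicle 2 as the only vehicle library gave 2, with a median of 0.23.

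Of 27 genes of the postsynaptic density, the protein mesh under excitatory receptors, 14 rose and 1 fell. These were 51.9% and 3.70%, beside 14.5% and 20.6% of all genes, and the median was 0.37. Dlgap3, a scaffold protein, was at 234, 289.6 and 202 CPM and 403, 454, 368 and 425 CPM and rose by 0.77 (SE 0.14, edgeR adjusted p = 0.00154). Camk2b, a subunit of the calcium-dependent kinase of learning, was at 895, 814 and 888 CPM and 1157, 1302, 1199.8 and 1225 CPM, with vehicle 2 the lowest of the 7, and rose by 0.50 (SE 0.10). Nlgn2, the adhesion molecule of inhibitory synapses, rose by 0.47 (SE 0.10). Dlg1, a scaffold also found outside synapses, fell by 0.55 (SE 0.15), a call lost without vehicle 1 (-0.45, adjusted p = 0.0682) and without vehicle 3 (-0.46, adjusted p = 0.0636). In 14 of the 14 members that rose, vehicle 2 lay below every acetate library, a share near the 90.7% of all genes called higher. Leaving out vehicle 1, 2 and 3 gave 10, 14 and 6 rises, and leaving out acetate 2 or 4 gave 9 and 9. The list's median differences were 0.36, 0.23 and 0.48 log2 CPM against vehicle 1, 2 and 3. Scaled on neuronal markers the folds of Camk2b and Nlgn2 changed sign, to -0.12 and -0.14.

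Of 29 glutamate receptor and auxiliary subunit genes, 10 rose and 1 fell, with a median of 0.28. These were 34.5% and 3.45%, beside 14.5% and 20.6% of all genes. Grm7, a presynaptic metabotropic receptor, was at 8.82, 16.4 and 9.27 CPM and 22.3, 24.8, 27.4 and 22.99 CPM and rose by 1.09 (SE 0.24, edgeR adjusted p = 0.00380), while Gria1, an AMPA receptor subunit, rose by 0.35 (SE 0.083). Grm2, another metabotropic receptor, went the other way, at 26.9, 8.11 and 20.3 CPM and 5.96, 7.02, 8.11 and 7.60 CPM with vehicle 2 at the level of the highest acetate library. Its fold of -1.36 (SE 0.35) lost its call without vehicle 1 (-0.99, adjusted p = 0.0711). The count of rises was 3, 15 and 3 without vehicle 1, 2 and 3, and 5 and 3 without acetate 2 and 4. Median differences of the list were 0.30, 0.18 and 0.47 log2 CPM against vehicle 1, 2 and 3. Of 15 GABA receptor genes, 3 rose and 0 fell (20.0% rose and 0% fell, beside 14.5% and 20.6% of all genes), a share of rises near that of all genes. Gabra3, the alpha3 subunit, was at 4.34, 4.28 and 5.79 CPM and 8.75, 8.49, 10.8 and 9.67 CPM and rose by 0.97 (SE 0.16), with 1.14 against vehicle 2 alone, where it passed. Scaled on neuronal markers Gria1 changed sign, to -0.25. Without vehicle 1, 2 and 3 the GABA count was 1, 3 and 2, and against vehicle 2 alone 1.

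Channels that shape firing also rose in part. Of 25 sodium, calcium and HCN channel genes, 13 rose and 0 fell, with a median of 0.36. These were 52.0% and 0%, beside 14.5% and 20.6% of all genes. Cacna1g, a T-type calcium channel that drives burst firing (chromosome 11, 94408391 to 94474400), was at 45.0, 55.2 and 45.8 CPM with vehicle and 101, 117, 103 and 106 CPM with acetate. All acetate libraries stood well above all vehicle libraries, vehicle 2 included, and the log2 fold was 1.13 (SE 0.10, edgeR adjusted p = 3.11e-05), or 0.96 (adjusted p = 0.00539) against vehicle 2 alone. Its relative Cacna1i rose by 0.83 (SE 0.11) and the pacemaker channel Hcn3 by 0.66 (SE 0.10), each from narrow vehicle groups at 14.2, 14.8 and 12.3 CPM and 85.6, 90.2 and 79.0 CPM. The count was 10, 19 and 9 without vehicle 1, 2 and 3 and 4 against vehicle 2 alone.

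Of 36 potassium channel genes, 15 rose and 4 fell (41.7% and 11.1%, beside 14.5% and 20.6% of all genes), with a median of 0.33. Kcnn1, a calcium-activated channel of the afterhyperpolarisation, was at 11.1, 17.8 and 9.64 CPM and 30.5, 31.7, 31.5 and 32.7 CPM and rose by 1.30 (SE 0.20, edgeR adjusted p = 0.000646). Kcnh3, another potassium channel, rose by 1.21 and Kcns2, a silent modulatory subunit, by 0.96 (SE 0.20). Kcnq3, a subunit of the M-current that restrains repeated firing, rose by 1.29, a call lost without vehicle 1 or 3 or acetate 1 (adjusted p = 0.0883, 0.106 and 0.0605). The falls were in Kcnj4, an inward rectifier (-1.19, SE 0.26), and in Kcna4, Kcnj9 and Kcnk2 with -0.67, -0.45 and -0.41. Kcnj4 was at 92.2, 28.8 and 73.3 CPM and 26.4, 29.5, 27.2 and 30.3 CPM, with vehicle 2 inside the acetate range. The calls of the other falls were lost in fits that left out 1 library. Kcna4 was called no longer without vehicle 1 or 3 or acetate 1, 2 or 3 (adjusted p = 0.165, 0.146, 0.0651, 0.0819 and 0.0764). Kcnj9 was called no longer without vehicle 1 or 3 or acetate 1 or 3 (adjusted p = 0.205, 0.0706, 0.0897 and 0.0880). Kcnk2 was called no longer without vehicle 1 (adjusted p = 0.0955). Rises numbered 8, 15 and 10 without vehicle 1, 2 and 3 and 1 against vehicle 2 alone, and falls 1, 5 and 2 and 0. Without acetate 1 or 3, 2 and 2 fell.

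Of 26 genes of the neuronal cytoskeleton, 19 rose and 0 fell, with a median of 0.50. These were 73.1% and 0%, beside 14.5% and 20.6% of all genes. Tubb3, the neuronal beta tubulin, was at 1062, 1595 and 1246 CPM and 2668, 2882, 2414 and 2571 CPM and rose by 1.02 (SE 0.21, edgeR adjusted p = 0.00280). Tuba1a, the alpha tubulin of growing neurites, was at 2041, 2215 and 2302 CPM and 3485, 3601, 3458 and 3471 CPM and rose by 0.68 (SE 0.11), and Ina, a neurofilament-type protein, rose by 0.68 (SE 0.092). Tubulins are a family of near-identical genes, so reads can be split between them. The count was 13, 21 and 13 without vehicle 1, 2 and 3 and 2 against vehicle 2 alone.

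Of 14 pan-neuronal markers 11 rose (78.6%, beside 14.5% of all genes), among them Rbfox3, the nuclear antigen NeuN, at 235, 267 and 202 CPM and 328, 342, 293 and 387 CPM (0.53, SE 0.11). That count was 5, 13 and 6 without vehicle 1, 2 and 3, 7 without acetate 1 and 1 against vehicle 2 alone. The rise of these markers accompanied the fall of non-neuronal markers in the same libraries, and the part of the latter in the rise of synaptic genes was not tested. Scaled on the neuronal markers, the medians of vesicle, postsynaptic, glutamate receptor, sodium and calcium channel, potassium channel and cytoskeleton genes turned negative, at -0.21, -0.24, -0.31, -0.23, -0.29 and -0.072, all above the -0.63 of all genes under that scaling. That scaling lowers all genes alike, so small rises change sign under it, and lists above the median of all genes stay above it. Lying above -0.63 there is thus no separate result. Tubb3, a member of the cytoskeleton list, is also a scaling marker. Grm7, Erc2, Kcnn1 and Cacna1g, none of them among the scaling markers, still passed there as rises, with 0.54, 0.54, 0.75 and 0.55.

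Genes of neuronal identity and neuropeptides moved in both directions. Of 22 transcription factors of excitatory neurons, 8 rose and 2 fell (36.4% and 9.09%, beside 14.5% and 20.6% of all genes). Cux2, a factor of upper cortical layers, was at 14.7, 17.1 and 20.1 CPM and 24.9, 33.1, 27.1 and 27.4 CPM and rose by 0.70 (SE 0.14, edgeR adjusted p = 0.00243). Zbtb20, a factor of hippocampal pyramidal neurons and astrocytes, fell by 0.35 (SE 0.092). Rises numbered 5, 11 and 6 without vehicle 1, 2 and 3 and 1 against vehicle 2 alone. Of 19 interneuron genes 4 rose, namely Calb2, Sp9, Dlx5 and Satb1, and 2 fell, Pvalb and Prox1 (21.1% rose and 10.53% fell, beside 14.5% and 20.6% of all genes); the GABA-making enzymes Gad1 and Gad2 had -0.13 and -0.083 and did not pass. Calb2 was called no longer without vehicle 1 or 3 or acetate 2 or 4 (adjusted p = 0.126, 0.115, 0.0569 and 0.0529). Sp9 was called no longer without vehicle 1 (adjusted p = 0.0823), and Prox1 was called no longer without vehicle 1 or 3 or acetate 3 or 4 (adjusted p = 0.0711, 0.0766, 0.0515 and 0.0600). The interneuron rises numbered 2, 5 and 4 and the falls 1, 5 and 1 without vehicle 1, 2 and 3, and 1 and 0 against vehicle 2 alone.

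Among 21 genes of neuropeptides and their secretory granules, 2 rose, Nts and Chga, and 7 fell. These were 9.52% and 33.3%, beside 14.5% and 20.6% of all genes, and the median was -0.11. Pdyn, the precursor of dynorphin, was at 23.6, 7.70 and 36.5 CPM and 5.14, 6.38, 5.84 and 4.41 CPM. It fell by 2.06 (SE 0.37, edgeR adjusted p = 0.00129), with -0.49 against vehicle 2 alone. Nmb, the precursor of neuromedin B, showed no such dependence. It was at 11.1, 11.2 and 11.1 CPM and 6.18, 5.78, 5.52 and 7.20 CPM, all 3 vehicle libraries together, and fell by 0.85 (SE 0.13, edgeR adjusted p = 0.000690). Adcyap1, the precursor of PACAP, fell by 2.496. Without vehicle 1, 2 and 3 the falls numbered 5, 8 and 3 and the rises 2, 6 and 3, and against vehicle 2 alone 1 and 1.

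Genes that neurons switch on within minutes of firing, the immediate early genes, were lower with acetate, mainly against inhibitor vehicle 1 and 3. Of 25 such transcription factors, 15 fell (60.0%, beside 20.6% of all genes) and 1 rose, with a median log2 fold of -0.71. Atf3, which also answers injury and stress, was at 29.1, 5.65 and 24.8 CPM with vehicle and 2.22, 2.71, 2.55 and 2.88 CPM with acetate, with a log2 fold of -2.94 (SE 0.50, edgeR adjusted p = 0.000986). Fos, the classic marker of recent firing (chromosome 12, 85473890 to 85477274), was at 22.5, 9.34 and 24.4 CPM and 7.70, 6.75, 9.74 and 5.26 CPM. Vehicle 2 lay within the acetate range, so that the fall of 1.35 (SE 0.28) became -0.34 against vehicle 2 alone. Maff, a small bZIP factor, had the same shape, at 8.21, 1.69 and 8.32 CPM and 1.001, 1.47, 1.81 and 0.765 CPM.

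Btg2, a brake on the cell cycle that neurons switch on with activity (chromosome 1, 134074865 to 134079155), fell against every vehicle library. It was at 30.1, 22.7 and 29.2 CPM in inhibitor vehicle 1 to 3 and 14.97, 14.0, 15.3 and 13.0 CPM in inhibitor acetate 1 to 4, and fell by 0.93 (SE 0.11, edgeR adjusted p = 0.000158), or by 0.65 against vehicle 2 alone, where it passed. Nfil3, a repressor shared with the clock, was at 56.0, 33.4 and 38.3 CPM and 24.0, 25.8, 21.7 and 24.2 CPM and fell by 0.83 (SE 0.15). Klf10, a zinc-finger factor, rose by 0.82 (SE 0.22), a call lost without vehicle 1 (0.71, adjusted p = 0.0588) and without vehicle 3 (0.71, adjusted p = 0.0580). The early factor Nr4a1 fell by 1.18 and Junb by 1.06, the latter a call lost without vehicle 1 or 3 (adjusted p = 0.0847 and 0.0688), while Fosb and Egr3 had 0.017 and 0.31 and did not pass. Falls numbered 9, 14 and 10 without vehicle 1, 2 and 3. The list's median differences were -0.88, -0.17 and -0.73 log2 CPM against vehicle 1, 2 and 3. Non-neuronal markers fell in the same comparison, and the part of those cells in these values was not tested. In 10 of the 15 called lower (66.7%), vehicle 2 lay above every acetate library, near the 66.4% of all genes called lower.

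The 250 bases before the RefSeq start of Btg2 hold the letters of the cyclic AMP response element, through which CREB answers activity, and are shown because Btg2 holds the element and all its vehicle libraries lay above all its acetate libraries (RefSeq, GRCm38.p6, chr1:134079156-134079405, minus strand, with TGACGTCA in capitals).
Btg2: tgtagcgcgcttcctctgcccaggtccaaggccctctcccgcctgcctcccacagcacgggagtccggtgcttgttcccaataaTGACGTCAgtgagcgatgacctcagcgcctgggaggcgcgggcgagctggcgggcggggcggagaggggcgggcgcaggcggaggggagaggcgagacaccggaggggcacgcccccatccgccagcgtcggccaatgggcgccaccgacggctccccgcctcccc
The element TGACGTCA, searched on both strands of 300-base promoters, was found in 2 of the 19 early factors with a promoter in the table , Btg2 and Maff, and in 403 of 11447 promoters of genes tested (3.5%). Among activity-regulated effectors it was in 3 of 14, Pcsk1, Plk2 and Scg2, none of which passed, with -0.21, 0.14 and -0.40. The AP-1 letters TGACTCA, found in 530 of all those promoters (4.6%), were in 0 of the promoters of either list, which says only that these letters are not in those windows.

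Of 23 effectors of activity, the proteins that early factors and calcium signals switch on, 9 fell and 1 rose. These were 39.1% and 4.35%, beside 20.6% and 14.5% of all genes, and the median was -0.36. Bdnf, a growth factor for synapses (chromosome 2, 109674700 to 109727043), was at 42.4, 29.1 and 47.3 CPM with vehicle and 16.7, 14.2, 18.8 and 17.5 CPM with acetate. No vehicle library overlapped the acetate group, and Bdnf fell by 1.24 (SE 0.15, edgeR adjusted p = 0.000158), or by 0.78 (adjusted p = 0.0238) against vehicle 2 alone. Gadd45b, a stress and DNA demethylation factor, was at 27.7, 13.5 and 24.5 CPM and 7.14, 7.76, 8.02 and 7.78 CPM and fell by 1.51 (SE 0.20), and Vgf, a secreted neurotrophin-induced peptide precursor, fell by 1.42 (SE 0.22). Arc, which removes AMPA receptors from synapses, was at 9.56, 2.01 and 8.28 CPM and 2.05, 2.62, 1.95 and 2.38 CPM. Vehicle 2 held as little Arc as the acetate libraries, and the fold of -1.56 (SE 0.35) was 0.17 against it alone.

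Nptx1, a secreted pentraxin that gathers AMPA receptors (chromosome 11, 119538719 to 119547820), rose against the run of that list. It was at 32.9, 60.0 and 36.9 CPM with vehicle and 101, 118, 121 and 111 CPM with acetate, with a log2 fold of 1.38 (SE 0.19, edgeR adjusted p = 0.000342) and of 0.91 against vehicle 2 alone. Its relative Nptx2 fell by 1.05, a call lost without vehicle 1 or 3 (adjusted p = 0.0550 and 0.0668), and the receptor Nptxr had 0.64, which did not pass. Falls of effectors numbered 6, 11 and 6 without vehicle 1, 2 and 3 and 2 against vehicle 2 alone.

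Of 20 genes that feed back on Ras and MAPK signaling, 6 fell and 1 rose, with a median of -0.32. These were 5% that rose and 30% that fell, beside 14.5% and 20.6% of all genes. Spred3, a membrane-bound brake on Ras (chromosome 7, 29157783 to 29170070), was at 134, 93.1 and 101 CPM and 45.1, 38.7, 45.8 and 49.1 CPM and fell by 1.29 (SE 0.12, edgeR adjusted p = 3.13e-05), with -1.05 against vehicle 2 alone. Dusp14, a MAP kinase phosphatase, was at 13.4, 11.1 and 11.5 CPM and 6.53, 6.52, 7.33 and 6.43 CPM and fell by 0.84 (SE 0.12). In both genes every vehicle library stood above every acetate library, with vehicle 2 near the others. Without vehicle 1, 2 and 3 the falls numbered 4, 7 and 5, and 3 against vehicle 2 alone.

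**Figure D3:**
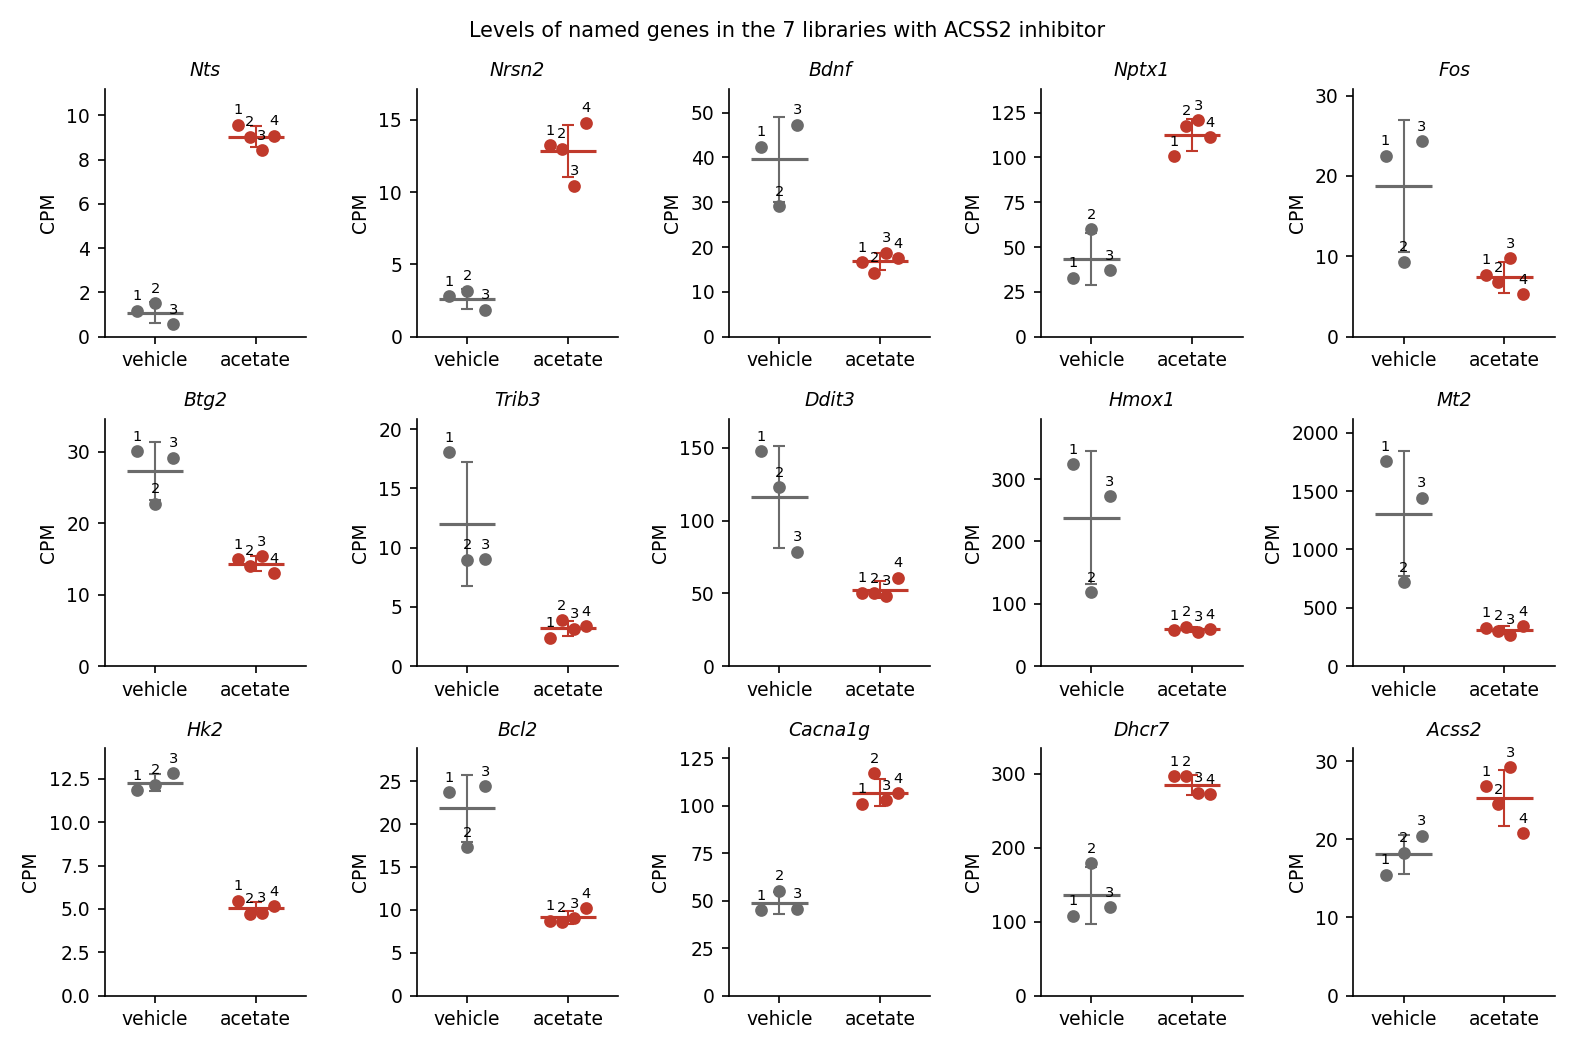
CPM of 15 genes in the 7 inhibitor libraries (vertical axes), with vehicle in grey and acetate in red; points are libraries with their replicate number and bars the group mean with its SD (n = 3 and n = 4). In Nts, Hk2 and Cacna1g the 3 vehicle libraries lie together, while in Fos inhibitor vehicle 2 at 9.34 CPM lies within the acetate range of 5.26 to 9.74 CPM.

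The integrated stress response is the program that the factor ATF4 runs when cells lack amino acids or carry unfolded protein. Of 34 of its genes 18 fell (52.9%, beside 20.6% of all genes) and 1 rose, with a median log2 fold of -0.36. This list was as low against vehicle 2 as against vehicle 1, with median differences of -0.39, -0.42 and -0.086 log2 CPM against inhibitor vehicle 1, 2 and 3, and in 17 of the 18 genes that fell vehicle 2 lay above every acetate library, beside 66.4% of all genes called lower. Here vehicle 3 was the library nearest to acetate. The falls numbered 15, 16 and 20 without vehicle 1, 2 and 3, and 15 with the non-neuronal score in the model, a fit that leans on vehicle 2.

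Trib3, a pseudokinase that ATF4 switches on (chromosome 2, 152337425 to 152344060), was at 18.1, 8.98 and 9.04 CPM in inhibitor vehicle 1 to 3 and 2.39, 3.86, 3.15 and 3.37 CPM in inhibitor acetate 1 to 4, and fell by 1.91 (SE 0.25, edgeR adjusted p = 0.000269). Stc2, a secreted glycoprotein of stressed cells, was at 26.8, 12.7 and 19.8 CPM and 6.14, 6.66, 6.07 and 6.03 CPM and fell by 1.67 (SE 0.27). Gdf15, a hormone released under mitochondrial and nutrient stress, was at 18.2, 19.5 and 13.9 CPM and 9.40, 10.3, 6.07 and 7.11 CPM and fell by 1.06 (SE 0.18). In these genes all vehicle libraries lay above all acetate libraries. Psph, the last enzyme of serine synthesis, was at 54.6, 47.6 and 52.5 CPM and 30.2, 30.3, 33.5 and 30.1 CPM and fell by 0.73 (SE 0.11). The member that rose was Ddit4, an inhibitor of mTOR signaling, at 167, 145 and 142 CPM and 200.3, 228, 214 and 199 CPM (0.48, SE 0.10), with -0.13 scaled on neuronal markers.

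Atf4 itself and its partner Ddit3, which encodes CHOP, were chosen after their values were seen. Atf4 was at 585, 622 and 367 CPM with vehicle and 329, 345, 319 and 373 CPM with acetate, so that vehicle 3 lay inside the acetate range while vehicle 1 and 2 lay above it, and it fell by 0.62 (SE 0.13). Ddit3 was at 148, 123 and 78.5 CPM and 50.5, 50.3, 48.5 and 60.9 CPM, again with vehicle 3 as the lowest vehicle library, and fell by 1.15 (SE 0.23). Not every target followed: Asns, which makes asparagine, had -0.0059, the serine enzyme Psat1 -0.060 and the amino acid transporter Slc7a5 0.038, and none of the 3 passed.

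ATF4 binds the amino acid response element, searched here as TGATGNAA on both strands. It was found in 9 of the 28 members with a promoter in the table (32.1%) and in 308 of 11447 promoters of genes tested (2.7%). Chac1, Nupr1, Slc7a11 and Trib3 hold it and fell, while Asns, Gars, Pycr1, Slc1a4 and Vldlr hold it and did not pass, so that the letters alone did not sort the members that fell from those that did not. The 250 bases before the RefSeq start of the first 3 are shown, chosen after their values were seen because they hold the element and fell, with the element in capitals (GRCm38.p6; Chac1 chr2:119350992-119351241, plus strand; Nupr1 chr7:126625471-126625720, minus strand; Slc7a11 chr3:50443614-50443863, minus strand).
Chac1: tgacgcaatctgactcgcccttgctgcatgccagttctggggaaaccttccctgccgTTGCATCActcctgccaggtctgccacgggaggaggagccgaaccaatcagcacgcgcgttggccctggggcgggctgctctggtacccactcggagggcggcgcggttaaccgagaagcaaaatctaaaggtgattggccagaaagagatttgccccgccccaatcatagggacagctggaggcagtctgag
Nupr1: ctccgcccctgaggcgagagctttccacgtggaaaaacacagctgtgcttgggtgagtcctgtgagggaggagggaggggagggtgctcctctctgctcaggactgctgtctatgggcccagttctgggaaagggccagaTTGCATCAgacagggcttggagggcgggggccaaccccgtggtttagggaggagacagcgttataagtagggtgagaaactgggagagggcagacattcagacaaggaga
Slc7a11: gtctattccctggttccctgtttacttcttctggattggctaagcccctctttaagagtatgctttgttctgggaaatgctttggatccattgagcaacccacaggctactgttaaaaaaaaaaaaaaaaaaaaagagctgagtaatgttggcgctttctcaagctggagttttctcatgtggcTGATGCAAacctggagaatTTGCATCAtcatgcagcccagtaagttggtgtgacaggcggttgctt
Chac1 and Nupr1 hold 1 copy each, read as TTGCATCA, and Slc7a11 holds 2, a TGATGCAA and a TTGCATCA. Chac1, an enzyme that degrades glutathione, was at 77.3, 67.5 and 19.8 CPM with vehicle and 19.8, 22.7, 19.1 and 22.05 CPM with acetate, with vehicle 3 inside the acetate range. Nupr1, a stress-induced chromatin protein, was at 36.8, 6.93 and 41.0 CPM and 3.79, 2.94, 4.08 and 3.42 CPM, and Slc7a11, the cystine importer, at 25.4, 3.42 and 25.3 CPM and 2.39, 2.57, 3.89 and 3.69 CPM. The odd library therefore differed between genes with the same element: vehicle 3 was low in Chac1, and vehicle 2 was low in Nupr1 and, within the acetate range, in Slc7a11. Their log2 folds were -1.39 (SE 0.31), -2.99 (SE 0.64) and -2.53 (SE 0.55). With vehicle 2 as the only reference they were -1.68, -0.95 and -0.12.

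Genes of protein folding in the endoplasmic reticulum, which share inputs with that program, rose and fell at shares near those of all genes. Of 28, 4 rose and 7 fell (14.3% rose and 25.0% fell, beside 14.5% and 20.6% of all genes), with a median of -0.025, and Hspa5, the master chaperone BiP, had -0.052 and did not pass. Herpud1, which helps clear misfolded protein, was at 63.8, 57.9 and 44.1 CPM and 29.4, 33.4, 37.0 and 34.3 CPM and fell by 0.72 (SE 0.11, edgeR adjusted p = 0.000646), with -0.78 against vehicle 2 alone. Derl3, part of the export channel for such protein, rose by 1.12 (SE 0.24). Without vehicle 1, 2 and 3 the falls numbered 3, 7 and 3 and the rises 3, 4 and 1, against vehicle 2 alone 1 and 0, 4 and 2 without acetate 2, and 3 and 2 without acetate 4.

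NRF2 is the factor that switches on genes against oxidants. Of 29 of its targets 20 fell (69.0%, beside 20.6% of all genes) and 0 rose, with a median log2 fold of -0.61. Against inhibitor vehicle 1, 2 and 3 the median differences were -0.72, -0.19 and -0.90 log2 CPM. In 15 of the 20 that fell (75%) vehicle 2 lay above every acetate library, beside 66.4% of all genes called lower. Hmox1, the enzyme that degrades heme (chromosome 8, 75093618 to 75100593), was at 324, 118 and 272 CPM with vehicle and 58.0, 63.3, 55.4 and 58.9 CPM with acetate. Vehicle 2 lay between the other vehicle libraries and the narrow acetate group, and the fall was 2.02 (SE 0.28, edgeR adjusted p = 0.000354). Osgin1, an oxidant-induced growth inhibitor, was at 22.3, 8.98 and 12.6 CPM and 4.22, 4.22, 2.23 and 3.96 CPM and fell by 1.997 (SE 0.31), and Srxn1, which repairs peroxiredoxins, fell by 1.26 (SE 0.22). Prdx1, the peroxide-scavenging peroxiredoxin, was at 364, 267 and 396 CPM and 187, 190.4, 207 and 182 CPM and fell by 0.84 (SE 0.13). Nqo1, the quinone reductase, fell by 3.06, the glutathione synthesis gene Gclc by 0.72, and the ferritin genes Ftl1 and Fth1 by 0.85 and 0.64, Fth1 a call lost without vehicle 1 or 3 (adjusted p = 0.0897 and 0.0930). Hmox1, Osgin1, Prdx1 and Srxn1 had -0.997, -1.29, -0.47 and -0.55 against vehicle 2 alone. The falls numbered 13, 22 and 14 without vehicle 1, 2 and 3, and 5 with the non-neuronal score in the model, a fit that leans on vehicle 2.

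NRF2 binds the antioxidant response element, searched as TGACNNNGC on both strands. It was in 10 of the 24 members with a promoter in the table (41.7%) and in 1928 of 11447 promoters (16.8%), and the AP-1 letters TGACTCA, which can overlap it, were in 4 of the 24 (16.7%) and in 4.6% of all, among them Prdx1. The 250 bases before the start of Prdx1 are shown because all vehicle libraries of that gene lay above all acetate libraries (RefSeq, GRCm38.p6, chr4:116685349-116685598, plus strand, with the element in capitals, read on the opposite strand).
Prdx1: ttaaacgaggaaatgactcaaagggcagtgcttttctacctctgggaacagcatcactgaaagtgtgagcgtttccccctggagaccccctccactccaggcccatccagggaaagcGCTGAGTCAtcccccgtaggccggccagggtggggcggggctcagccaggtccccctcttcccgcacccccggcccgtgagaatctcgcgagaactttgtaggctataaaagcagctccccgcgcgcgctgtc

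Metallothioneins bind zinc and copper and answer metals, glucocorticoids and oxidants. Mt2 (chromosome 8, 94172618 to 94173567) was at 1757, 721 and 1444 CPM in inhibitor vehicle 1 to 3 and 329, 306, 269 and 342 CPM in inhibitor acetate 1 to 4, and fell by 2.07 (SE 0.25, edgeR adjusted p = 0.000149). Its neighbour Mt1 was at 1698, 814 and 1402 CPM and 414, 389, 347 and 391 CPM and fell by 1.76 (SE 0.22). Every vehicle library stood above every acetate library in both, and against vehicle 2 alone they still passed, with -1.20 and -1.07. Mt3, the neuronal and astrocytic form, had -0.29 and did not pass. Slc30a3, which loads zinc into synaptic vesicles, rose by 0.87 (SE 0.19). Of the 7 genes of that list 3 fell and 2 rose (42.9% and 28.6%, beside 20.6% and 14.5% of all genes). Without vehicle 1, 2 and 3 the falls numbered 2, 3 and 2.

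Heat shock genes moved in both directions. Of 21, 5 fell and 6 rose (28.6% rose and 23.8% fell, beside 14.5% and 20.6% of all genes). The falls were in the small heat shock proteins Hspb1, Cryab and Hspb8, in their partner Bag3 and in Hsp90aa1. Cryab was at 109, 46.4 and 105 CPM and 24.4, 23.2, 23.04 and 24.6 CPM and fell by 1.86 (SE 0.21, edgeR adjusted p = 8.24e-05), Hspb8 fell by 1.24 (SE 0.17) and Bag3 by 1.73 (SE 0.32). Hspb1 was at 26.9, 1.37 and 23.3 CPM and 1.22, 0.780, 0.927 and 1.08 CPM, with vehicle 2 just above the acetate libraries. Against vehicle 2 alone Cryab, Hspb8, Bag3 and Hspb1 had -0.95, -0.63, -0.51 and -0.44. Chaperones that rose included Hspa1b (0.66), a call lost without vehicle 1 or acetate 2 (adjusted p = 0.0611 and 0.0510), and Hsph1 (0.33), a call lost without vehicle 1 (adjusted p = 0.105). Hsp90aa1 was called no longer without vehicle 1 or 2 or acetate 1, 2 or 3 (adjusted p = 0.0545, 0.253, 0.0705, 0.120 and 0.0996). The rises numbered 0, 7 and 4 without vehicle 1, 2 and 3, 3 without acetate 2 and 0 against vehicle 2 alone, and the falls 4, 4 and 5 and 3.

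Astrocytes, the cells that hold much of the brain's metallothionein, small heat shock protein and NRF2 response, had lower markers in the same libraries. Of 15 astrocyte markers 6 fell and 0 rose, with 6, 9 and 4 falls without vehicle 1, 2 and 3 and 1 against vehicle 2 alone. Sox9, their nuclear factor, was at 185, 137 and 196 CPM and 86.4, 70.2, 84.1 and 89.5 CPM (-1.06, SE 0.14), and Gja1, their gap junction protein, at 71.2, 52.2 and 90.2 CPM and 36.9, 26.7, 37.5 and 28.8 CPM (-1.13, SE 0.18). The glutamate transporters Slc1a2 and Slc1a3 had -0.16 and -0.052, and glutamine synthetase, Glul, 0.11, and none of the 3 passed. The part of astrocyte number or state in the stress gene values was not tested.

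Genes that handle acetate and acetyl-CoA rose more often than they fell. Of 21, 9 rose and 1 fell (42.9% and 4.76%, beside 14.5% and 20.6% of all genes), with a median log2 fold of 0.23. Acss2, the inhibited enzyme (chromosome 2, 155518043 to 155562743), was at 15.5, 18.3 and 20.5 CPM in inhibitor vehicle 1 to 3 and 26.8, 24.5, 29.2 and 20.8 CPM in inhibitor acetate 1 to 4. The lowest acetate library lay just above the highest vehicle library, and the rise of 0.49 (SE 0.16, edgeR adjusted p = 0.0319) was lost without vehicle 1 (adjusted p = 0.138) and without acetate 1, 2 and 3 (adjusted p = 0.0690, 0.0509 and 0.0829). Acss1, its mitochondrial relative, was at 21.7, 20.8 and 25.4 CPM and 19.0, 14.0, 24.9 and 11.8 CPM, overlapping groups with a fold of -0.38 (SE 0.19, adjusted p = 0.134). Without acetate 3 that fold was -0.60 and passed (edgeR adjusted p = 0.0137). In Acss1 acetate 1 and 3 lay above acetate 2 and 4, as they did in the mean of the astrocyte markers.

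Acly, which makes cytosolic acetyl-CoA from citrate (chromosome 11, 100476352 to 100528000), was at 74.0, 126 and 97.6 CPM and 208, 205, 218 and 152 CPM and rose by 0.98 (SE 0.24, edgeR adjusted p = 0.00656). Slc25a1, the carrier that exports that citrate from mitochondria, was at 276, 355 and 248 CPM and 507, 536, 451 and 493 CPM and rose by 0.76 (SE 0.14). The thiolases rose as well. Acat1 of mitochondria was at 135, 172 and 161 CPM and 227, 226, 228 and 224 CPM (0.54, SE 0.080), the tightest acetate group of these genes, and Acat2 of the cytosol was at 85.5, 186 and 103 CPM and 254, 250.2, 254 and 236 CPM (0.99, SE 0.25). With vehicle 2 as the only reference Acat1, Acly, Slc25a1 and Acat2 had 0.41, 0.65, 0.49 and 0.42. Pdk4, which shuts off pyruvate entry to mitochondria, fell by 0.64, a call lost without vehicle 1 or 3 or acetate 1, 2, 3 or 4 (adjusted p = 0.0795, 0.190, 0.0674, 0.0529, 0.0648 and 0.0546). The rises numbered 5, 11 and 6 without vehicle 1, 2 and 3 and 1 against vehicle 2 alone. Scaled on neuronal markers the list's median was -0.36, and the folds of Acss2 and Acat1 changed sign, to -0.11 and -0.052.

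The sterol pathway uses that acetyl-CoA, and its genes answer the factor SREBP-2 when sterols run low. Of 26 of its genes 14 rose (53.8%, beside 14.5% of all genes) and 0 fell, with a median of 0.55. Dhcr7, which carries out the final step towards cholesterol (chromosome 7, 143823167 to 143848410), was at 108, 179 and 119.7 CPM and 297, 296, 274 and 272 CPM and rose by 1.07 (SE 0.22, edgeR adjusted p = 0.00280). Mvd, which makes the isoprene unit, was at 126, 271 and 169 CPM and 495, 482, 426 and 391 CPM and rose by 1.25 (SE 0.31). The sensor Insig1 had 0.29 and did not pass. In 14 of the 14 that rose vehicle 2 lay below every acetate library, a share near the 90.7% of all genes called higher. Their median differences were 1.29, 0.46 and 0.86 log2 CPM against vehicle 1, 2 and 3. Still, the count was 2, 18 and 5 without vehicle 1, 2 and 3, and 8 and 8 without acetate 1 and 3. Over the whole list the median differences were 0.96, 0.30 and 0.64 against vehicle 1, 2 and 3. Lss, which closes the sterol ring, lost its call (0.70, SE 0.19) without vehicle 1, where it had 0.52 at adjusted p = 0.0688. Scaled on neuronal markers the list's median was 0.0035, beside -0.63 for all genes. The sterol regulatory letters CACCCCAC, searched on both strands, were in the promoter of 1 of 18 members, Hmgcs1, and in 445 of 11447 promoters (3.9%).

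Fatty acid genes moved both ways. Of 19, 4 rose and 3 fell (21.1% rose and 15.8% fell, beside 14.5% and 20.6% of all genes). Fasn, the fatty acid synthase, was at 547, 607 and 585 CPM and 961, 971, 1031 and 844 CPM and rose by 0.71 (SE 0.18, edgeR adjusted p = 0.00721), and Acaca, which makes its malonyl-CoA, rose by 0.49. Acacb, the mitochondrial form that restrains fat burning, fell by 1.31, a call lost without vehicle 1 or 3 (adjusted p = 0.0680 and 0.0745). Srebf1, the factor of fatty acid synthesis, was at 147, 90.6 and 157 CPM and 85.6, 77.1, 93.0 and 71.5 CPM with vehicle 2 inside the acetate range (-0.69, SE 0.15), and Elovl1, an elongase of long chains, fell by 0.78 (SE 0.11). Of 23 genes of fatty acid oxidation 4 fell and 1 rose (4.35% rose and 17.4% fell, beside 14.5% and 20.6% of all genes), with a median of -0.16. Eci1, an isomerase of that pathway, was at 25.5, 21.4 and 19.9 CPM and 12.2, 9.73, 14.0 and 9.58 CPM and fell by 0.97 (SE 0.14), with -0.90 against vehicle 2 alone, and Hadh fell by 0.44 (SE 0.10). Oxidation genes that fell numbered 3, 6 and 2 without vehicle 1, 2 and 3 and 1 against vehicle 2 alone; synthesis genes that rose numbered 4, 5 and 3 and 0.

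Genes of glucose uptake and glycolysis moved in both directions. Hk2, the inducible hexokinase (chromosome 6, 82725025 to 82774454), was at 11.9, 12.2 and 12.8 CPM in inhibitor vehicle 1 to 3 and 5.48, 4.73, 4.78 and 5.17 CPM in inhibitor acetate 1 to 4. The vehicle libraries lay within 1 CPM of each other, and Hk2 fell by 1.28 (SE 0.12, edgeR adjusted p = 3.11e-05), with -1.26 against vehicle 2 alone. Slc2a1, the glucose transporter of barrier cells and glia, was at 53.7, 29.3 and 53.2 CPM and 18.7, 18.1, 18.6 and 17.4 CPM and fell by 1.32 (SE 0.16). The neuronal transporter Slc2a3 rose by 0.42, Hk1, the constitutive hexokinase, by 0.55 and Eno2, the neuronal enolase, by 0.78 (SE 0.10). Pfkp, a phosphofructokinase, was at 145, 165 and 154 CPM and 217, 245, 246 and 236 CPM and rose by 0.61 (SE 0.10). In total 6 of 23 rose and 4 fell (26.1% rose and 17.4% fell, beside 14.5% and 20.6% of all genes), and without vehicle 1, 2 and 3 5, 8 and 7 rose and 4, 4 and 3 fell, against 2 and 2 with vehicle 2 alone. Of 14 hypoxia genes 1 rose, Bnip3, and 2 fell, Adm and Kdm3a. These were 7.14% and 14.3%, both below the shares of all genes. Adm, the vasodilator peptide adrenomedullin, was at 5.30, 2.87 and 6.13 CPM and 0.871, 0.367, 1.16 and 0.495 CPM and fell by 2.72 (SE 0.35), past the threshold also against vehicle 2 alone (-1.97). Kdm3a, a histone demethylase, was called no longer without vehicle 1 or 3 or acetate 2 or 4 (adjusted p = 0.197, 0.0634, 0.0935 and 0.101).

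Few genes of mitochondrial energy supply changed. Of 45 nuclear genes of the respiratory chain 1 rose, Ndufs1 of complex I, and 0 fell, with a median log2 fold of 0.046. Ndufs1 overlapped between the groups, and its call (0.32, SE 0.12) held without vehicle 2 or acetate 2 and in no other fit that left out a library. The direction of the list differed between vehicle libraries. Against inhibitor vehicle 1, 2 and 3 its median differences were 0.17, -0.22 and 0.21 log2 CPM, and without vehicle 2 13 members rose. Of 20 genes of the citric acid cycle 2 rose and 3 fell (7 and 3 without vehicle 2). These were 10% and 15%, beside 14.5% and 20.6% of all genes. Idh3a, a subunit of its NAD-linked dehydrogenase, rose by 0.41 (SE 0.10; -0.18 scaled on neuronal markers), and Suclg2, the GTP-forming succinyl-CoA ligase, fell by 0.70 (SE 0.17).

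Ribosomal proteins of the cytosol were measured by 35 genes, of which 1 rose and 5 fell, with a median of -0.11. These were 2.86% and 14.3%, beside 14.5% and 20.6% of all genes. Rps9 was at 522, 564.3 and 486 CPM and 428, 409, 399.8 and 385 CPM and fell by 0.37 (SE 0.073, edgeR adjusted p = 0.00241). These genes have processed pseudogenes, so their counts are uncertain. Their median differences were -0.058, -0.28 and 0.0057 log2 CPM against vehicle 1, 2 and 3, and falls numbered 3, 4 and 6 with each left out and 3 without acetate 3. Of 31 proteasome genes 3 rose and 3 fell (9.68% rose and 9.68% fell, beside 14.5% and 20.6% of all genes). Without vehicle 1, 2 and 3 the proteasome rises numbered 0, 5 and 0 and the falls 0, 0 and 3. Without acetate 2, 3 and 4 they numbered 0, 1 and 0 and 2, 0 and 1.

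Of the enzymes that write histone acetylation, the mark that nuclear acetyl-CoA feeds, few changed. Of 12 acetyltransferases 0 rose and 1 fell (0% rose and 8.33% fell, beside 14.5% and 20.6% of all genes). It was Kat6b, which was at 39.1, 35.3 and 40.01 CPM and 32.2, 31.0, 32.6 and 28.8 CPM. Its fold of -0.29 (SE 0.082) lost its call without vehicle 1 (-0.27, adjusted p = 0.0604) and without vehicle 3 (-0.25, adjusted p = 0.0706). Crebbp, the coactivator CBP, was at 48.1, 80.3 and 49.2 CPM and 54.8, 42.6, 46.1 and 61.9 CPM. Vehicle 2 was its highest library, and its fold of -0.20 (SE 0.18, adjusted p = 0.399) did not pass and was 0.082 without that library. Of 18 deacetylases and sirtuins 5 rose and 2 fell (27.8% rose and 11.1% fell, beside 14.5% and 20.6% of all genes), together near the 35% of all genes that changed. Hdac2, a nuclear deacetylase that restrains memory genes, was at 61.7, 71.8 and 68.3 CPM and 85.5, 92.8, 92.5 and 101 CPM and rose by 0.47 (SE 0.093, edgeR adjusted p = 0.00251).

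Hdac11, the deacetylase that removes long fatty acyl groups, was at 126, 135 and 110.0 CPM and 168, 192, 168 and 188 CPM and rose by 0.53 (SE 0.091), and Sirt5, which removes succinyl groups in mitochondria, rose by 0.54 (SE 0.11). The falls were in Hdac5 and Hdac7, which shuttle from the nucleus with activity. Hdac5 was at 364, 208 and 287 CPM and 193, 195, 194 and 185 CPM (-0.58, SE 0.14) and Hdac7 at 87.7, 71.0 and 82.9 CPM and 57.0, 54.8, 55.6 and 56.7 CPM (-0.52, SE 0.075). Scaled on neuronal markers Hdac2, Hdac11 and Sirt5 changed sign, to -0.13, -0.058 and -0.056. The deacetylase rises numbered 4, 6 and 4 and the falls 2, 5 and 2 without vehicle 1, 2 and 3.

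Genes of cell death and of nutrient signaling changed at shares near those of all genes. Of 26 apoptosis and p53 genes 3 rose and 7 fell (11.5% rose and 26.9% fell, beside 14.5% and 20.6% of all genes). Bcl2, the guardian of mitochondria against cell death (chromosome 1, 106538176 to 106714290), was at 23.7, 17.3 and 24.4 CPM and 8.75, 8.59, 8.99 and 10.2 CPM and fell by 1.26 (SE 0.13, edgeR adjusted p = 5.38e-05), with -0.91 against vehicle 2 alone. Bcl2l11, its antagonist Bim, fell too, by 0.84 (SE 0.15). Rises numbered 1, 5 and 3 and falls 5, 8 and 7 without vehicle 1, 2 and 3, and without acetate 2 or 3 1 and 1 rose. Of 20 genes of AMPK and mTOR signaling 4 rose and 4 fell (20.0% rose and 20.0% fell, beside 14.5% and 20.6% of all genes), with 3, 5 and 3 rises and 4, 4 and 3 falls without vehicle 1, 2 and 3. Ddit4l, an mTOR inhibitor related to Ddit4, was at 46.6, 24.8 and 43.3 CPM and 13.3, 11.8, 10.6 and 10.9 CPM and fell by 1.72 (SE 0.21). The AMPK subunits Prkab2 and Prkag1 moved in opposite directions, at 10.6, 18.5 and 10.2 CPM and 25.1, 22.8, 26.1 and 19.5 CPM for Prkab2 (0.83, SE 0.18) and 61.9, 61.1 and 59.2 CPM and 49.9, 46.9, 49.4 and 50.5 CPM for Prkag1 (-0.30, SE 0.063).

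Of 31 lysosome and autophagy genes 14 fell and 2 rose (45.2% and 6.45%, beside 20.6% and 14.5% of all genes). Median differences were -0.38, -0.073 and -0.26 log2 CPM against inhibitor vehicle 1, 2 and 3. Ctsd, a protease rich in microglia, was at 2439, 828 and 2677 CPM and 763, 820.2, 763 and 728 CPM, with vehicle 2 just above the acetate range. Tfeb, the factor that switches on lysosome genes, was at 24.5, 15.04 and 19.0 CPM and 11.1, 8.63, 11.2 and 8.46 CPM and fell by 0.99 (SE 0.16, edgeR adjusted p = 0.000780). Falls numbered 8, 17 and 6 without vehicle 1, 2 and 3 and 0 against vehicle 2 alone. Of 21 clock genes 5 fell and 0 rose (0% rose and 23.8% fell, beside 14.5% and 20.6% of all genes), falls at a share near that of all genes (5, 5 and 3 without vehicle 1, 2 and 3, 1 against vehicle 2 alone). Per1, a clock gene that also answers activity, was at 162, 81.7 and 111 CPM and 68.7, 67.4, 69.6 and 74.6 CPM (-0.75, SE 0.16), and Bhlhe41 (-0.83, SE 0.21) lost its call without vehicle 3 (-0.64, adjusted p = 0.0589).

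Of 44 axon guidance genes 17 rose and 7 fell (38.6% and 15.9%, beside 14.5% and 20.6% of all genes), with a median of 0.25. Ephrins moved in both directions: Efna3 was at 61.5, 68.5 and 53.6 CPM and 114, 125, 104 and 124 CPM and rose by 0.93 (SE 0.14, edgeR adjusted p = 0.000470), while Efna5 was at 18.6, 18.3 and 18.6 CPM and 10.4, 9.92, 9.55 and 13.9 CPM and fell by 0.76 (SE 0.13). Nrp2, a semaphorin receptor, was at 117, 114 and 125 CPM and 156, 167, 166 and 173 CPM and rose by 0.48 (SE 0.074). In Efna5 and Nrp2 the 3 vehicle libraries lay close together, vehicle 2 included. Rises numbered 12, 20 and 10 and falls 5, 10 and 4 without vehicle 1, 2 and 3, and 5 and 0 against vehicle 2 alone. The list's median turned negative when libraries were scaled on neuronal markers, at -0.35, as did Nrp2, at -0.13.

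Markers of microglia and genes of immunity lay far below vehicle 1 and 3 with acetate, and near vehicle 2. All but 1 of 17 microglia markers fell, with a median of -3.70, and in 0 of the 16 vehicle 2 lay above the acetate range. Microglia falls numbered 13, 17 and 11 without vehicle 1, 2 and 3 and 0 against vehicle 2 alone. Trem2, a lipid receptor of microglia, was at 45.7, 0.319 and 49.4 CPM in inhibitor vehicle 1 to 3 and 0.696, 2.20, 0.695 and 1.44 CPM in inhibitor acetate 1 to 4, vehicle 2 being the lowest of the 7. Csf1r, the growth factor receptor of microglia, was at 32.0, 1.37 and 38.4 CPM and 0.740, 3.67, 0.974 and 1.98 CPM. Against vehicle 2 alone Trem2 and Csf1r had 1.97 and 0.43, neither past the threshold, and without vehicle 2 -5.23 and -4.26.

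Of 26 interferon-stimulated genes 16 fell and 1 rose (61.5% and 3.85%, beside 20.6% and 14.5% of all genes). Median differences were -1.54, 0.0036 and -1.58 log2 CPM against vehicle 1, 2 and 3. Ifitm3, a membrane protein that blocks virus entry, was at 60.7, 17.6 and 50.6 CPM and 16.3, 14.5, 18.6 and 13.5 CPM, with vehicle 2 in the acetate range. Stat2, a signal carrier of interferon, rose, from 34.0, 42.0 and 41.2 CPM to 54.6, 56.2, 57.7 and 51.0 CPM (0.49, SE 0.086, edgeR adjusted p = 0.00123), and changed sign to -0.10 when scaled on neuronal markers. Of 14 genes of MHC class I presentation 9 fell (64.3%, beside 20.6% of all genes), with medians of -1.35, 0.14 and -1.32 against vehicle 1, 2 and 3. Psmb10, an immunoproteasome subunit, was the exception: it was at 63.7, 76.2 and 57.6 CPM and 45.3, 47.2, 43.8 and 43.4 CPM, all vehicle libraries above all acetate libraries with vehicle 2 the highest, and fell by 0.55 (SE 0.10, edgeR adjusted p = 0.00115). Its partner Psmb8 was at 14.7, 2.46 and 17.3 CPM and 2.18, 2.20, 1.62 and 2.52 CPM, with vehicle 2 in the acetate range. Interferon falls numbered 10, 20 and 7 and MHC falls 3, 12 and 3 without vehicle 1, 2 and 3, 0 and 1 against vehicle 2 alone, and 10 of the interferon genes fell without acetate 4.

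Of 28 collagen and fibroblast matrix genes 22 fell (78.6%, beside 20.6% of all genes). Col1a1, the main fibrillar collagen, was at 179, 6.97 and 248 CPM and 8.01, 16.8, 17.3 and 8.95 CPM, and against vehicle 2 alone it had 0.88, which did not pass. Falls numbered 20, 28 and 17 without vehicle 1, 2 and 3 and 2 against vehicle 2 alone. Choroid plexus and ependymal markers kept part of the difference: all 9 fell, with medians of -2.07, -0.83 and -2.16 log2 CPM against vehicle 1, 2 and 3. With each left out 7, 9 and 7 fell. Folr1, the folate receptor of choroid plexus, was at 19.9, 4.83 and 18.3 CPM and 1.61, 3.12, 1.44 and 2.83 CPM (-2.67, SE 0.42), while Foxj1, the factor of motile cilia, was at 92.9, 21.5 and 83.2 CPM and 20.5, 24.3, 17.6 and 21.6 CPM with vehicle 2 in the acetate range. The plot of list medians sets these lists at the bottom, where the points for vehicle 2 part from the others, and the integrated stress response in the middle, where they do not.

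**Figure D4:**
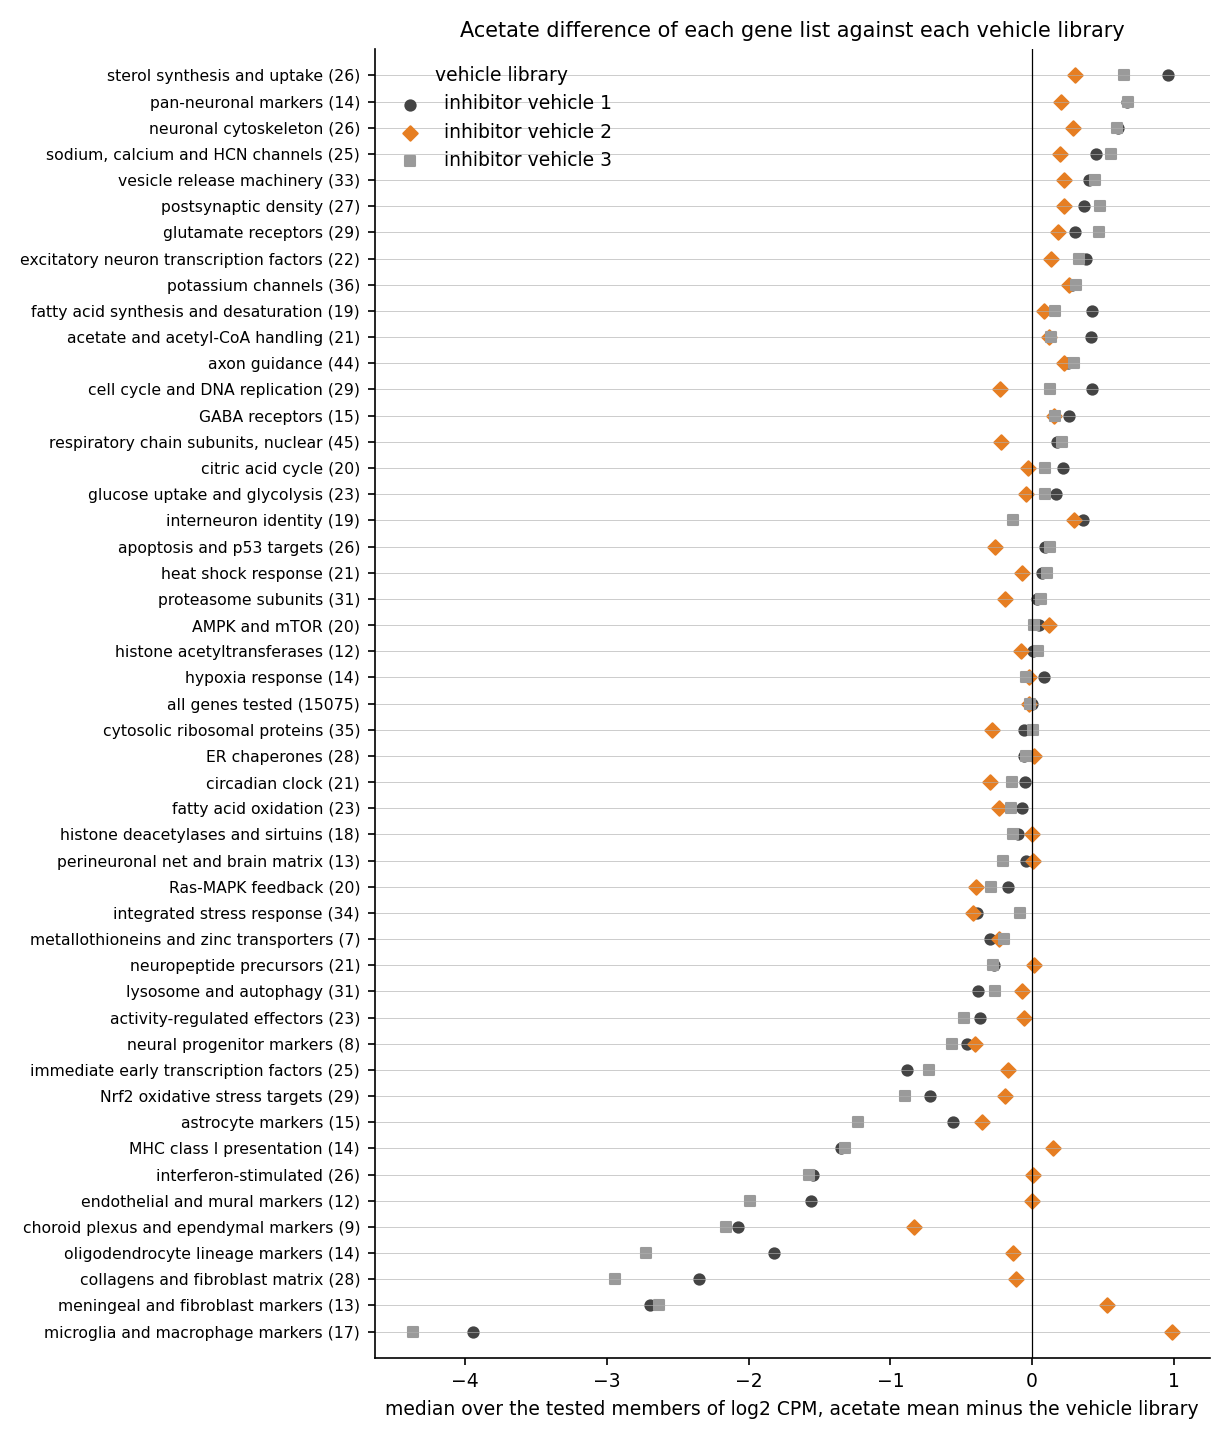
Median over the tested members of each list (number in brackets) of the acetate mean minus each vehicle library, in log2 CPM (horizontal axis), with circles for inhibitor vehicle 1, diamonds for vehicle 2 and squares for vehicle 3. Microglia markers lie at -3.94, 0.98 and -4.37, the integrated stress response at -0.39, -0.42 and -0.086 and sterol genes at 0.96, 0.30 and 0.64.

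Markers of neural progenitors, the dividing cells that give rise to neurons and glia, were lower against every vehicle library. Of 8 tested 4 fell and 0 rose (50% and 0%, beside 20.6% and 14.5% of all genes). Median differences were -0.46, -0.40 and -0.57 log2 CPM against vehicle 1, 2 and 3, and the falls numbered 4, 4 and 4 with each left out. Pax6, a factor of radial glia, was at 23.2, 19.6 and 24.2 CPM and 16.0, 11.8, 14.97 and 11.2 CPM and fell by 0.73, and Eomes, a factor of intermediate progenitors, was at 2.69, 0.775 and 3.55 CPM and 0.522, 0.459, 0.510 and 0.630 CPM and fell by 2.14. Of 29 cell cycle genes 2 rose and 1 fell, with 0, 3 and 0 rises without vehicle 1, 2 and 3. These were 6.90% and 3.45%, beside 14.5% and 20.6% of all genes. Of 13 genes of the perineuronal net, the matrix around mature neurons, 1 rose (7.69%) and 3 fell (23.1%), shares below and near those of all genes. Its falls numbered 2, 4 and 2 without vehicle 1, 2 and 3. The remaining marker lists gave falls alone: 9 of 14 for oligodendrocytes (64.3%), 7 of 12 for vessel cells (58.3%) and 10 of 13 for meninges (76.9%), beside 20.6% of all genes. Their median differences against vehicle 2 were -0.14, -0.0042 and 0.53 log2 CPM, and against vehicle 1 -1.82, -1.56 and -2.69. Against vehicle 2 alone 0, 0 and 0 fell.

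Whether the acetate response differed from that in cultures without inhibitor was tested as the difference of the log2 folds, inhibitor arm minus DMSO arm. By edgeR 3 of 15075 genes passed (0.0199%), and 1018 passed by DESeq2. The edgeR count was 3, 19 and 1005 without inhibitor vehicle 1, 2 and 3, 654 without the vehicle library of each arm that stood apart (DMSO vehicle 1 and inhibitor vehicle 2), 816 with that score in the model and 2543 with inhibitor vehicle 2 as the only inhibitor vehicle library. So few or many differences were called according to the tool and to single vehicle libraries, and the members below are given by their levels.

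Rasl11b, a small Ras-like GTPase (chromosome 5, 74195326 to 74199477), was at 28.4, 25.2, 29.1 and 29.2 CPM in DMSO vehicle 1 to 4 and 17.0, 17.9, 15.3 and 13.6 CPM in DMSO acetate 1 to 4. With the inhibitor it was at 23.8, 29.3 and 25.3 CPM in vehicle 1 to 3 and 32.0, 34.8, 32.4 and 33.4 CPM in acetate 1 to 4. Acetate libraries thus lay below all vehicle libraries without inhibitor and above them with it, and the difference of 1.15 had SE 0.14 and edgeR adjusted p = 0.00345. The rise with inhibitor (0.34, SE 0.10) lost its call without vehicle 1 (0.28, adjusted p = 0.0763) and without vehicle 3 (0.32, adjusted p = 0.0566), and turned to -0.25 scaled on neuronal markers. Sel1l3 was at 44.5, 49.0, 50.2 and 46.8 CPM and 26.6, 25.4, 28.7 and 23.9 CPM without inhibitor, and at 29.4, 28.5 and 32.4 CPM and 29.6, 31.3, 33.8 and 33.7 CPM with it. Its inhibitor groups overlapped, its level in inhibitor vehicle lay below that in DMSO vehicle, and the difference was 0.95 (SE 0.11, edgeR adjusted p = 0.00345).

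Spred3, the brake on Ras described above, was at 125, 101, 115 and 115 CPM and 117, 114, 96.8 and 99.5 CPM without inhibitor, groups that overlapped, while with the inhibitor every acetate library lay below every other library of the 15. The difference was -1.19 (SE 0.17, edgeR adjusted p = 0.0151). The Spred3 difference was not called without inhibitor acetate 1 or 3, and scaled on neuronal markers neither Spred3 nor Sel1l3 was called while Rasl11b and Nptx1 were. Nptx1 had folds of -0.12 without and 1.38 with inhibitor, a difference of 1.504 (SE 0.25, adjusted p = 0.0702) that did not pass, and Prkab2 had -0.38 and 0.83 (difference 1.21, adjusted p = 0.0719). The same held for Nmb, with -0.12 and -0.85, for Rps9, with 0.10 and -0.37, and for Chac1, with 0.25 and -1.39, at adjusted p = 0.0721, 0.0719 and 0.0724. Bdnf was at 61.6, 50.03, 51.8 and 47.7 CPM and 29.6, 36.2, 33.9 and 38.9 CPM without inhibitor, and its fall of 0.61 there and of 1.24 here gave a difference of -0.63 (SE 0.20, adjusted p = 0.106). The genes of the inhibited enzyme and of the citrate route did not pass either, with differences of 0.24 (SE 0.22) for Acss2 and 0.48 (SE 0.32) for Acly. A p that misses the threshold does not show that the responses were alike.

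**Figure D5:**
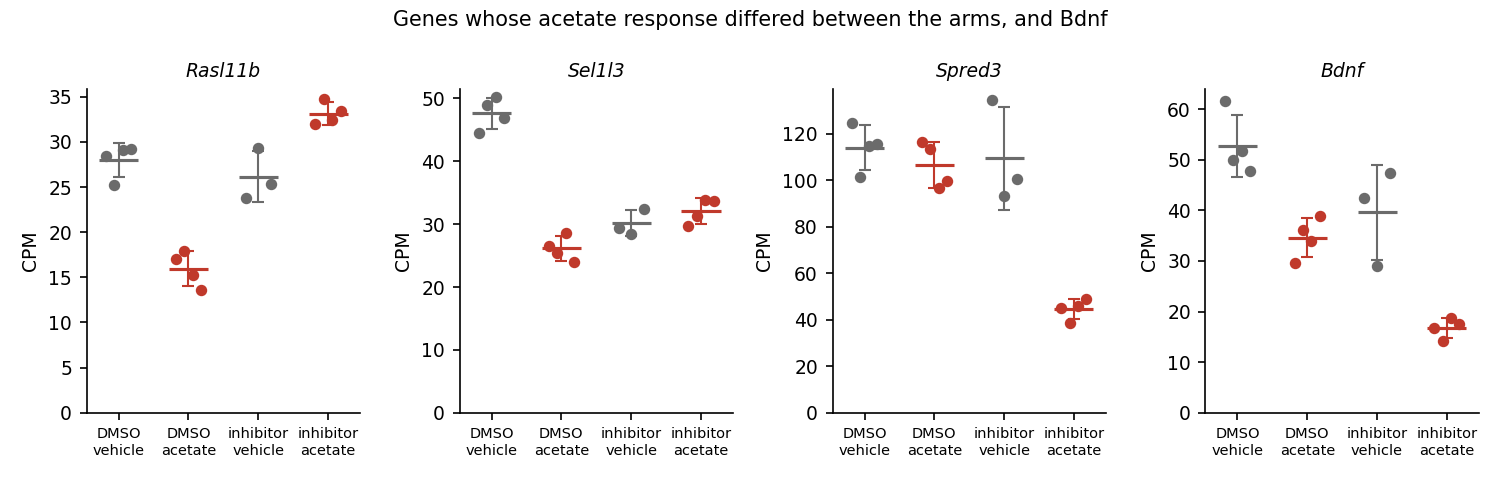
CPM of Rasl11b, Sel1l3, Spred3 and Bdnf in each of the 15 libraries (vertical axes), by group, with vehicle in grey and acetate in red; bars show the group mean with its SD (n = 4, 4, 3 and 4). In Spred3 the inhibitor acetate libraries lie at 38.7 to 49.1 CPM, below all other libraries.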

How the data were processed

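RNA was sequenced from 15 cultures of mouse hippocampal neurons, of which the 7 with inhibitor are compared. The authors deposited raw counts per gene, made with STAR 2.5.2a, HTSeq 0.6.1p1 and the build mm10, per the submitters' processing notes, which also name DESeq2. Not given in the sources used here are counting mode, strand setting and annotation, so antisense and overlapping genes are uncertain. Rows that name no gene held 39.3% to 47.4% of counts in the 7 libraries and were left out. The 47.4% was that of inhibitor vehicle 2, the highest of all 15 libraries. The next highest of the 7 was 42.6%, in inhibitor acetate 4. Inhibitor vehicle 2 also had the largest shares of reads without a unique alignment (29.3%) and in no gene feature (17.6%). The part of this in its gene levels was not tested. 0 per-sample columns went unused.

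Of 24498 genes, 15075 passed edgeR's filterByExpr and were fitted over all 15 libraries (edgeR 4.0.16, limma 3.58.1, R 4.3.3; TMM, quasi-likelihood F-test, Benjamini-Hochberg threshold 0.05, biological coefficient of variation 16.8%). Levels are CPM; a prior count of 2 was added for log2 CPM. Libraries of 1 group differed by a chi-square per gene of 4.65 or more, so none was the same library counted again. Separate preparations of 1 culture cannot be told apart this way. The lowest values, 4.65 and 4.95, were between replicates 3 and 4 of DMSO vehicle and of DMSO acetate. Sequences and gene positions come from RefSeq (GRCm38.p6, the assembly of mm10).

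Genes were named by rule: up to 15 per direction with the largest fold, no overlap and an average of 2 or more on the log2 CPM scale, up to 4 per list with the smallest p, up to 2 that go against their list, up to 5 for the difference of responses, and 8 set genes. Genes named beyond it, Xist and the Y-linked genes included, were picked with their values known. The comparison and the 50 gene lists were chosen with earlier results of these data known, and the lists get no test of their own. Alternatives were other scalings, filters, DESeq2 1.42.0, a replicate block, a covariate and libraries left out, with inhibitor vehicle 2 as the only vehicle library added after seeing the data. There the lone library is assumed to vary like the other groups, and few genes can pass.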

Additional observations from a re-analysis of the deposited data

Results flagged for a closer look

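The 3 genes past the test of a different acetate response between the arms were Rasl11b, with a difference of 1.15 on the log2 scale, Sel1l3, with 0.95, and Spred3, with -1.19. Their levels in each library are given above.

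In 8 of 196 named genes 1 acetate library lay apart from the other 3 by Dixon's measure, the gap to the nearest library as a share of the range, above its critical value. Chance alone gives about 1 such case in 20 groups, so 8 is no more than chance gives. Inhibitor acetate 3 lay apart in Psph (33.5 CPM, 0.916), Dusp14 (7.33 CPM, 0.894) and Osgin1 (2.23 CPM, 0.868). Acetate 2 did so in Sema4a (63.4 CPM, 0.900) and Fth1 (2012 CPM, 0.834), and acetate 4 in Ddit3 (60.9 CPM, 0.838), Psat1 (171 CPM, 0.865) and Pycr1 (14.7 CPM, 0.951).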

How the results depend on the processing

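Counts of rises and falls moved with the vehicle libraries. Leaving out 1 inhibitor library at a time gave 1245 to 2894 rises, 1877 to 3616 falls and 2 to 1005 genes for the difference of responses, the low ends of the first 2 without inhibitor vehicle 1 and the high end of the last without vehicle 3. Without DMSO vehicle 1 and inhibitor vehicle 2 there were 3434 rises, 4064 falls and 654 differences. The non-neuronal score as a covariate gave 771, 1000 and 816, scaling on neuronal markers 137, 10450 and 2, and inhibitor vehicle 2 as the only vehicle library 208, 286 and 2543. DESeq2 gave 2443, 3064 and 1018. The cause was not tested. Size factors of DESeq2, upper-quartile scaling, both other filters on low counts and, for rises and falls, a fit of the 7 libraries alone kept each count within 1.5 times. In that fit of the 7, which tested 14347 genes, 1682 rose and 2193 fell. Deviations of same-numbered inhibitor vehicle and acetate libraries from their group means had correlations of -0.23, -0.35 and -0.044. Between DMSO vehicle and inhibitor vehicle 1, 2 and 3 the values were -0.65, -0.47 and 0.38. So few values, with vehicle 2 far from the other vehicle libraries, cannot tell whether the numbers pair samples. A replicate block gave 1908 rises, 2616 falls and 3 differences, and 5 of 196 named genes lost their call.

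Scaling on neuronal markers shifts all genes alike, with their median going from -0.03 to -0.63, so small rises change sign by construction, and Rbfox3 is itself a scaling marker. It turned the sign of 30 of 196 named genes: Acaca (-0.086), Acat1 (-0.052), Acss2 (-0.11), Bnip3 (-0.12), Camk2b (-0.12), Chga (-0.089), Ddit4 (-0.13), Egr3 (-0.28), Fosb (-0.63), Glul (-0.47), Gria1 (-0.25), Hdac11 (-0.058), Hdac2 (-0.13), Hk1 (-0.053), Hsph1 (-0.27), Idh3a (-0.18), Insig1 (-0.30), Ndufs1 (-0.25), Nlgn2 (-0.14), Nrp2 (-0.13), Plk2 (-0.47), Pycr1 (-0.57), Rasl11b (-0.25), Rbfox3 (-0.061), Sel1l3 (-0.52), Sirt5 (-0.056), Slc2a3 (-0.18), Slc7a5 (-0.51), Stat2 (-0.10) and Vldlr (-0.55). With the covariate 72 named genes lost their call and 13 turned: Acacb (0.0072), Col1a1 (0.68), Csf1r (0.10), Egr3 (-0.32), Gad1 (0.32), Gad2 (0.15), Glul (-0.15), Insig1 (-0.090), Kdm5d (0.022), Olig1 (-0.77), Scg2 (0.28), Slc7a5 (-0.34) and Vldlr (-0.41). Col1a1, Csf1r, Glul and Olig1 are themselves members of the lists that make the score, so their values under it are no separate result. The covariate fit leans on vehicle 2, so it and the fit with vehicle 2 alone are not separate checks. Against vehicle 2 alone 113 lost their call and 14 turned: Arc (0.17), Col1a1 (0.88), Csf1r (0.43), Gad1 (0.40), Gad2 (0.13), Glul (-0.066), Junb (0.38), Kcna4 (0.067), Kdm5d (0.14), Olig1 (-0.58), Scg2 (0.20), Slc7a5 (-0.39), Trem2 (1.97) and Vldlr (-0.43). Without DMSO vehicle 1 and inhibitor vehicle 2, 8 turned: Asns (0.16), Crebbp (0.082), Fosb (-0.27), Gars (0.021), Pcsk1 (0.013), Psat1 (0.048), Slc1a3 (0.13) and Uty (0.013). With 1 inhibitor library left out, the log2 fold of Asns ranged from -0.088 to 0.16, Crebbp from -0.33 to 0.082, Fosb from -0.27 to 0.43, Gad1 from -0.33 to 0.11, Gad2 from -0.17 to 0.066, Gars from -0.12 to 0.021, Pcsk1 from -0.32 to 0.013, Psat1 from -0.19 to 0.049, Slc1a3 from -0.18 to 0.13, Slc7a5 from -0.13 to 0.32, Uty from -0.60 to 0.017 and Vldlr from -0.12 to 0.29. Asns, near 0, turned to 0.0056 by DESeq2 and 0.0055 with its size factors. Vldlr, also near 0, turned to -0.00022 with upper-quartile scaling, -0.0020 with the stricter filter and -0.0053 in the 7 libraries alone. With 1 count worth 0.0378 to 0.0464 CPM, levels far below 1 CPM, such as those of Lox with acetate, rest on few counts.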
